A study of Canis lupus familiaris and Eptesicus fuscus and Equus caballus with 6 samples.

Results

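Small RNAs of 24 to 25 nt were the shortest molecules listed in the small RNA libraries of adult testis from dog, big brown bat (Eptesicus fuscus) and horse, and they were taken here as every listed sequence of these lengths, with identical sequences summed. There were 722531 such sequences among 7545354 over the 3 libraries. Dog gave 241010 of them (796512 reads), bat 70550 (322848 reads) and horse 410971 (1494308 reads). No animal had a treatment or a modified genotype in the labels, each species had 1 small RNA library, and the number of animals behind each library is not stated in the labels. No difference between species below therefore has a replicate check. The files pair no sequence with a gene, so the tissue label could not be checked against marker genes.

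This length lies between microRNAs and piRNAs. microRNAs are cut by Dicer from hairpins, are usually a little shorter than 24 nt, and find their targets with the seed, bases 2 to 8 from the 5′ end. piRNAs are longer, guide PIWI proteins against transposable elements, often begin with U, and receive their 3′ end by trimming of a longer precursor, so that forms of 1 piRNA tend to share the 5′ end and differ at the 3′ end. A sequence of 24 to 25 nt can be a long form of a microRNA, a shortened piRNA, or a piece of a larger RNA such as rRNA. T stands for U in the listed sequences.

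The most read members in dog and horse were microRNAs. Their names come from general knowledge of these sequences, since no microRNA table was used. Of those recognised among the more read members, 10 are printed in RNA sense with the seed in capitals. Together they held a large part of the 24 nt reads in dog and horse and little at 25 nt. In dog they ranked from 1 to 32 among the 24 to 25 nt members. In horse 9 of them were listed, at ranks from 1 to 25.
miR-30a-5p: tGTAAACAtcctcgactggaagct
miR-30c-5p: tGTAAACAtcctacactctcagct
miR-30d-5p: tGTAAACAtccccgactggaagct
miR-30e-5p: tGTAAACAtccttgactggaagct
miR-146b-5p: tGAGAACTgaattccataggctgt
miR-10b-5p: tACCCTGTagaaccgaatttgtgt
miR-21-5p: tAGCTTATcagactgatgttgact
miR-191-5p: cAACGGAAtcccaaaagcagctgt
miR-125a-5p: tCCCTGAGaccctttaacctgtga
miR-34c-5p: aGGCAGTGtagttagctgattgct

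The 4 members of the miR-30 family have 1 seed in common, and the other 6 have a seed each. Beside them stand the leading longer forms of 5 members that had more reads in longer forms than of their own, and last that of the most read bat member, which had fewer. They were chosen after their values were seen. Here the capitals mark the 24 or 25 nt member inside its most read longer form, in the direction that puts the shared end as the labels of each line say. In the dog and horse lines the end shared by most longer reads is assumed to be the 5′ end. The direction of these RNAs is not known. The second dog member had 59105 longer reads at this end and 13596 at the other. The member of the first horse line had 74427 longer reads at its first end. A more read horse member, with 10380 reads, begins 1 base later in the same stretch. It had 52021 longer reads at its first end and 19983 at its last, so this stretch has more than 1 common start.
Dog, shared 5′ end, listed as the reverse complement: TCAGACATGGATCCTGCCCTCGAGGagctg
Dog, shared 5′ end, listed as the reverse complement: TCCGTGGTGCCCAGAGAACAAATCAaaa
Horse, shared 5′ end, as listed: TTACAGAGAACTCCTTTGCTGGCACcacat
Horse, shared 5′ end, as listed: TATCAGATCTTATCTCATCATCAAGt
Bat, end of 5S rRNA, shared 3′ end, listed as the reverse complement: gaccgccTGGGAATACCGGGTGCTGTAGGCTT
Bat, most read member, in a longer form of few reads, as listed: attAATTGTTTCAAGACGGGACTGATG

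Members of 24 to 25 nt were a small part of each library and the largest part in bat. They took 1.93% of all 24 to 32 nt reads in dog (exact 95% interval 1.92 to 1.93%), 5.54% in the bat (5.52 to 5.56%) and 4.17% in the horse (4.16 to 4.18%). Intervals here are Clopper-Pearson binomial intervals and cover counting error only, since reads are PCR copies without molecular identifiers. In dog and horse reads fell steeply from 26 to 24 nt, from 2.80% over 1.24% to 0.684% of the library in dog and from 5.20% over 2.72% to 1.45% in horse. Bat did not show this slope, with 3.71% at 26 nt, 2.67% at 25 nt and 2.87% at 24 nt. There, however, the most read bat member alone held 41627 of the 167140 reads at 24 nt (24.9%). The missing slope in bat therefore rests in large part on 1 sequence. As distinct sequences the members were 8.20% of the dog, 11.1% of the bat and 10.3% of the horse library.

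Named microRNAs held a far larger share of the 24 nt than of the 25 nt reads. The 10 microRNAs took 37.6% of the 24 nt reads in dog (37.4 to 37.7%), 9.81% in the bat (9.67 to 9.95%) and 25.6% in the horse (25.5 to 25.7%). At 25 nt they took 0.0298%, 0.0687% and 0.0230%, and at 26 to 32 nt 0.0127%, 0.00191% and 0.00330%. For these 10, nearly all reads from 24 nt upward thus sat on 1 form of 24 nt each. Each of the 10 was picked as a well-read member of 24 nt, which favours this result. It does not show that microRNAs in general lack 25 nt forms here. In dog, miR-10b-5p had most longer forms, with 3782 reads of 26 to 32 nt against 20284 at 24 to 25 nt, and each of the other 9 had at least 93.9% of its listed reads at 24 to 25 nt.

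The few longer reads of these microRNAs kept the 5′ end. The longer forms of miR-10b-5p in dog shared its first end in 3782 reads and its last end in none, and the most read of them, of 30 nt, had 1861 reads. miR-30d-5p is listed as the reverse complement, so that its 5′ end is the last end. In horse it had 22 longer reads at that end and none at the other. miR-146b-5p in dog had 1135 longer reads at the 5′ end and 2 at the other, and miR-21-5p in horse 21 and 0. These microRNAs were among the most read members of the end classes described below, in which the rule does not know the direction of the RNA. The only leader of the classes that share 1 end alone that was neither a microRNA nor 5S rRNA was tgctctcagaattcaaattttgatc of bat, with 1326 reads against 1790 in longer forms.

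miR-146b-5p, a microRNA of inflammatory signalling, was the most read member in dog. It had 47289 reads of 24 nt in dog, 22698 in horse and 274 in bat, which were 5.94%, 1.52% and 0.0849% of the 24 to 25 nt reads. The bat share was far below the others. Nothing shorter than 24 nt is listed, so this and the microRNA values that follow are not levels of the whole microRNA. miR-10b-5p, from a microRNA gene in a Hox cluster, led in horse with 31333 reads (2.10%), had 20187 in dog (2.53%) and was again low in bat, with 81 reads (0.0251%).

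The miR-30 family was the largest seed group in bat and horse. Its 4 members together had 11936 reads of 24 to 25 nt in bat, 72.3% of the reads of the 10 microRNAs there, 27509 in dog (25.9%) and 41629 in horse (31.1%). miR-30d-5p had 8237 reads of 24 nt in dog, 2785 in the bat and 19420 in the horse, and miR-30e-5p had 6375, 3496 and 17198. Within the family, miR-30a-5p did not follow the others. It had 10405 reads in dog and 5072 in bat, the highest of the family in both, but its row was not among those of the horse file used here at any length from 24 to 32 nt. In horse, no listed form carried its first 20 nt on either strand. Whether it was absent from the library or left out of the listed sequences was not tested, so no limit on its abundance is given. miR-30c-5p was the least read of the family in dog and bat, with 2485 and 516 reads, and had 4984 in horse.

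The 24 nt form of miR-21-5p, a microRNA abundant in many tissues, was high in horse and low in dog. It had 17062 reads in horse (1.14%), 2560 in bat (0.793%) and 1116 in dog (0.140%). miR-191-5p had 7522 reads in dog, 862 in the bat and 10949 in the horse. miR-125a-5p, of the lin-4 family, had 1436, 326 and 7870. miR-34c-5p, known from male germ cells, differed little as a share of the 24 to 25 nt reads. It took 0.149% of them in dog (1186 reads), 0.131% in the bat (422) and 0.135% in the horse (2020). The 24 to 25 nt reads themselves were 1.93% of the listed reads in dog, 5.54% in the bat and 4.17% in the horse.

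Bat members were not led by microRNAs. The most read bat member, aattgtttcaagacgggactgatg, had 41627 reads, 12.9% of the class, and its source RNA was not identified. Only 1613 reads belonged to its longer forms, of which the most read, the last one printed above, had 528. It had 1 read in horse, on the other strand, and none in dog. The next bat member, aagcctacagcacccggtattccca with 15857 reads, is the reverse complement of the 3′ end of 5S rRNA, a ribosomal RNA whose short pieces are common in small RNA libraries. Members that hold the 16 nt core of this end took 8.78% of the bat class (28342 reads), against 0.0719% in dog (573 reads) and 0.324% in horse (4842 reads). Among bat sequences of 26 to 32 nt the same core took 5.20%. The third bat member, catggcctcagttccgaaaaccaac (6361 reads), is the reverse complement of a stretch of 18S rRNA, and tgtcctgcaattcacattaattctc (3778 reads) that of a stretch of the short rRNA that pairs with the large one in the large subunit. The 18S piece had 5737 reads in longer forms and the other piece 1020. These rRNA names, too, come from general knowledge.

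The abundance spectrum was steep at 24 nt and flatter at 25 nt. The 10 most read sequences took 38.2% of the 24 nt reads in dog, 43.2% in the bat and 26.4% in the horse. At 25 nt the 10 most read took 6.08%, 21.2% and 5.16%. Over both lengths they took 14.9% in dog (exact 95% interval 14.80 to 14.96%), 28.8% in the bat (28.68 to 28.99%) and 10.02% in the horse (9.97 to 10.07%). Without the 10 microRNAs the 10 most read took 4.59% in dog and 3.75% in horse, and still 28.05% in bat. At 26 to 28 nt the figures were 8.20%, 8.99% and 4.55%.

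Most members were read once. Sequences with 1 read were 76.9% of the members in dog, 73.2% in the bat and 71.5% in the horse, and held 23.3%, 16.0% and 19.7% of the reads. At 26 to 28 nt single-read sequences held 10.1%, 12.8% and 13.1% of the reads, and at 29 to 32 nt 2.63%, 5.17% and 4.45%. Reads per sequence rose with length, from 3.30 in dog, 4.58 in the bat and 3.64 in the horse at 24 to 25 nt to 20.7, 12.1 and 13.003 at 29 to 32 nt. In dog, 3228 sequences held 50% of the 24 to 25 nt reads, in horse 6218 and in bat 338. Substitution copies of abundant members added little: sequences 1 base away from a member read at least 100 times as often took 0.128%, 0.0335% and 0.0207% of the reads.

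T stood first and A stood last more often than inside the sequences, except for a first T in bat at 24 nt, at 24.6% against 27.1% inside. T was the first base of 52.3% of the 24 to 25 nt reads in dog (52.2 to 52.5%), 30.8% in the bat (30.6 to 30.9%) and 46.4% in the horse (46.3 to 46.5%). Between the ends T took 25.9%, 25.9% and 25.6% of the positions. A was the last base in 44.0% (43.9 to 44.1%), 37.9% (37.8 to 38.1%) and 48.6% (48.5 to 48.7%), against 26.04%, 25.8% and 25.2% inside. Both bases matter because part of each file is listed as the reverse complement, where a first U is written as a last A. The 2 bases rarely stood together: both were present in 11.3% of reads for dog, 9.71% for bat and 12.1% for horse, and 14.96%, 40.99% and 17.04% had neither.

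The 2 lengths differed in their ends where single abundant sequences weighed. In dog, T was first in 56.6% of the 24 nt and 49.99% of the 25 nt reads, and last in 38.1% and 19.7%. Without the 10 microRNAs, the 24 nt reads of dog had T first in 51.0% and last in 17.3%. In bat, A was first in 51.5% of the 24 nt reads, T in 24.6% and G last in 33.2%. The leading bat member begins with A and ends with G. Over distinct bat sequences of 24 nt, each counted once, A was first in 25.01%, T in 38.9% and G last in 16.3%. In horse, T was first in 44.7% at 24 nt and 47.3% at 25 nt, and A was last in 49.5% and 48.2%.

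Over distinct sequences the share with T first differed between lengths by less than 5 percentage points in each library. T was first in 46.6% of the dog members, 45.1% of the 26 to 28 nt sequences and 42.1% of those of 29 to 32 nt. In horse these were 43.7%, 43.3% and 44.0%. In bat, members were at 39.7%, against 42.1% and 41.9% in the longer classes. By reads the bat members were farther from the longer classes, with 30.8% against 46.4% and 49.5%. The GC content of the members was 46.6% in dog, 47.3% in the bat and 47.8% in the horse, close to the 46.7%, 48.8% and 47.7% of 26 to 28 nt reads.

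Most reads of the class belonged to shortened forms, that is sequences whose first or last 24 nt are also the first or last 24 nt of a 26 to 32 nt sequence in the same file. These took 85.7% of the 24 to 25 nt reads in dog (85.7 to 85.8%), 92.5% in the bat (92.4 to 92.6%) and 88.7% in the horse (88.6 to 88.7%). As distinct sequences they were fewer, 59.2%, 70.6% and 64.8%. For comparison, 26 nt reads that share an end in the same way with a sequence of 28 to 32 nt were 85.2%, 91.2% and 86.0%, and 50.3%, 66.3% and 53.9% of the sequences. By reads the members and the 26 nt sequences were thus close, while the range of longer lengths differs between these measures. The match also differs, since the 24 nt compared are the whole of a 24 nt member but only part of a 26 nt sequence. The measure asks for only 1 longer read, and the number of reads differed between the files.

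Both ends were shared by most of these reads. A longer form at both ends was found for 66.4% of the reads in dog, 72.4% in the bat and 68.2% in the horse. Only the first end was shared by 10.2%, 10.2% and 9.83%, and only the last end by 9.16%, 9.95% and 10.7%. The first and last ends were thus nearly level, in files that list part of their RNAs as the reverse complement.

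Members that shared only 1 end more often had U, as T first or A last, at that end. Of distinct members that shared only the first end, T was first in 64.0% in dog, 55.3% in the bat and 61.5% in the horse, and A was last in 30.6%, 25.6% and 29.4%. Of those that shared only the last end, A was last in 63.5%, 54.7% and 63.4%, and T was first in 30.0%, 25.1% and 29.1%. The 2 groups mirror each other in the 3 libraries. No base enters the rule that forms them. By reads the first-end group had T first in 67.9%, 44.0% and 67.0%, and the last-end group had A last in 76.3%, 64.7% and 74.8%.

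A stricter version weighed the longer reads at each end. Members with at least 10 longer reads were assigned to the end that held at least 80% of them, and last-end members were then turned to their reverse complement, so that the fixed end came first. This covered 57.0% of the reads in dog, 70.7% in the bat and 53.8% in the horse, of which 44.4%, 51.9% and 51.4% were turned. After turning, T was first in 73.4% of the reads in dog (73.3 to 73.6%), 39.8% in the bat (39.6 to 40.0%) and 75.6% in the horse (75.6 to 75.7%). Over distinct sequences it was 63.1%, 58.1% and 63.3%. Without the 10 microRNAs T was first in 69.2%, 36.9% and 72.4% of the turned reads. Turning assumes that the fixed end is the 5′ end. The 5S rRNA pieces of bat do not meet this, since their shared end is the 3′ end of the RNA. The leading bat member shared its last end in 1514 of 1613 longer reads, was therefore turned, and then begins with C.

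At the end that varied, no base was prevalent among distinct turned members. The last base was A in 27.3%, C in 25.7%, G in 22.9% and T in 24.1% in dog, and the 4 shares ranged from 22.6% to 28.7% in bat and from 22.8% to 27.1% in horse. By reads, without the 10 microRNAs, the shares were less even. C was then last in 32.1% and G in 16.9% in dog, and C in 36.1% and G in 16.3% in horse. In bat T was last in 39.1% of these reads, and the turned leading member ends with T. The next base in the most read longer form was T in 28.95%, A in 26.1%, G in 23.0% and C in 21.9% of the distinct dog members. In horse it was T in 27.1% and C in 23.7%, and in bat A in 28.5% and C in 21.8%. By reads, without the 10 microRNAs, the next base was A in 44.6% in bat, and T in 29.3% in dog and 28.2% in horse. Position 10, where an A marks secondary piRNAs of the ping-pong cycle, held A in 31.6% of the distinct turned members in dog, 27.1% in the bat and 29.5% in the horse. The adjacent positions 9 and 11 held it in 26.1% and 26.1%, 24.6% and 24.3%, and 25.8% and 25.6%. In each library another position between 5 and 15 held more A than position 10, with up to 33.02%, 29.1% and 33.1%.

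The longer forms of turned members were most often of 29 or 30 nt in dog and horse, the 2 most read lengths of all 3 libraries. Without the 10 microRNAs, the most read longer form at the fixed end was 29 nt long for 30.5% and 30 nt for 22.3% of the dog reads, and 30 nt for 27.6% and 29 nt for 20.04% of the horse reads. In bat 27 nt came first with 25.4%, ahead of 29 nt with 18.3% and 30 nt with 17.4%. The leading bat member, whose most read longer form has 27 nt, alone held 41627 of the 217802 bat reads counted here.

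Members ranged from nearly free of longer forms to small fractions of them. Reads of members with fewer longer reads than own, but at least 1, made up 18.1% of the class in dog, 25.1% in the bat and 17.1% in the horse, on only 3879, 663 and 9866 sequences. The 10 microRNAs held 69.1% of these reads in dog, 18.8% in the bat and 51.6% in the horse. A further 14.3%, 7.46% and 11.3% had no longer form at either end. Where longer reads were fewer than own, T first or A last stood in 88.1% of the dog, 87.5% of the horse and 31.7% of the bat reads. Members with 1 to 10 times as many longer reads had 88.6%, 84.2% and 63.5% in this order. Over all members, neither base was present in 14.96% of the dog, 17.04% of the horse and 40.99% of the bat reads. The low bat value rests in large part on 1 sequence. The leading bat member, which begins with A and ends with G, held 41627 of these 81195 bat reads. Apart from the members with fewer or no longer reads, all had at least as many longer reads as own. For 9.82%, 8.32% and 6.62% of all 24 to 25 nt reads the excess was over 100 times.

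Several families with more longer reads than own had more than 1 peak of length, but not all. In the first dog example printed above, sequences sharing the fixed end had 1054 reads at 24 nt, 5465 at 25 nt, 13189 at 26 nt, 650 at 27 nt, 18109 at 28 nt, 19972 at 29 nt and 30750 at 30 nt. In the second dog example there were 5 reads at 24 nt, 4838 at 25 nt, 2659 at 26 nt, 2449 at 27 nt, 53489 at 28 nt and 476 at 29 nt. The 25 nt form was a peak of its own there, above both neighbours. In the first horse example reads went from 202 at 24 nt over 5453 at 25 nt to 16705 at 26 nt, fell to 4643 at 27 nt, and rose again to 18370 at 30 nt. The second horse example had 13 reads at 24 nt, 5899 at 25 nt, 5622 at 26 nt, 72 at 27 nt and 4359 at 28 nt, so that 25 nt was its most read length. Another horse member, gcaggcagaggtctccattctcgta, had its one clear peak at 25 nt, with 361 reads at 24 nt, 6913 at 25 nt, 3984 at 26 nt, 1984 at 27 nt, 1913 at 28 nt, 1443 at 29 nt, 1654 at 30 nt and 31 at 31 nt. In these 5 families the 24 nt form had fewer reads than the 25 nt form. Each of them was chosen through its 25 nt member, which favours this order. Bat families chosen through a 24 nt member differed. There, cagtctccgtagagaccgtcaaaa had 3788 reads at 24 nt and 756 at 25 nt, and the 5S piece agcctacagcacccggtattccca had 5054 and 963. The 5S piece aagcctacagcacccggtattccc had 5281 and 15857.

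The 5S rRNA piece of bat had its reads at the long side. Sequences that share its 24 nt end had 5281 reads at 24 nt, 15857 at 25 nt, 2786 at 26 nt, 3539 at 27 nt, 17448 at 28 nt, 2687 at 29 nt, 38211 at 30 nt, 62376 at 31 nt and 69278 at 32 nt. Local peaks at 25 nt and, slightly higher, at 28 nt stood apart from the reads at 30 to 32 nt, the longest listed lengths.

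Members with more reads than their longer forms were not all among the 10 microRNAs. Of the members with at least 1000 reads, 15 of 37 in dog, 8 of 16 in bat and 26 of 65 in horse had fewer longer reads than own, where a form without longer reads counts too. Forms of the 10 microRNAs were 10, 4 and 9 of the members of that abundance. The most read unnamed ones in dog and horse, chosen after their values were seen, were aggctgtaggtgtccttctgtctaa in dog, with 4771 reads against 3628 in longer forms, and tactgtaaattactgaacttggttc in horse, with 3953 against 3223. In dog, ggtccaggatgaaacctaatctgag had 1498 reads and only 13 in longer forms. In horse, gctcagatctttctcatcatggcca had 2811 reads and 32 in longer forms. None of these 4 was listed in the other 2 species.

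Members without a longer form at either end were mostly single reads. They were 40.8% of the distinct members in dog, 29.4% in the bat and 35.2% in the horse, and 94.3%, 96.7% and 90.3% of them had 1 read. T was first in 47.0% of these sequences in dog, 34.0% in the bat and 43.3% in the horse, and A was last in 47.1%, 34.1% and 43.1%. The dog and horse values were near those of all their members, and the bat value was lower than the 39.7% of all bat members. The most read of them were microRNAs: miR-30e-5p in dog (6375 reads), miR-191-5p in the bat (862) and miR-34c-5p in the horse (2020). The second were aactcaccgacagcgttgaatgtt in dog (491 reads), which general knowledge gives as the reverse complement of a form of miR-181a-5p, and miR-125a-5p in bat (326).

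A small part of the unmatched reads lay elsewhere in longer forms. Reads with 24 nt found inside a longer sequence, away from its ends, were 1.15% of the class in dog, 0.844% in the bat and 1.44% in the horse. Reads that reached 1 base past an end of a longer sequence were 0.601%, 0.221% and 0.609%. Reads whose longer form was listed only on the other strand were 0.104%, 0.134% and 0.177%. There was no member whose own reverse complement was also listed. Not found by any of these were 12.4%, 6.26% and 9.10% of the reads. Among 25 nt members that shared their first 24 nt with a longer form, the 25th base differed from the longer forms in 0.173% of the reads in dog, 0.0868% in the bat and 0.0837% in the horse.

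Few members were found in more than 1 species. Sharing between species was not measured for the longer sequences, so low sharing is not shown to be particular to this length. On either strand, dog and bat shared 594 sequences (0.246% of the dog and 0.842% of the bat members), dog and horse 1707 (0.708% and 0.415%), and bat and horse 911 (1.29% and 0.222%). By reads the dog and bat pair took 14.3% of the class in dog and 17.1% in bat, and the dog and horse pair 14.3% and 11.5% of theirs. The bat and horse pair took 32.3% and 10.5%. The bat value rests in part on the leading bat member, which matched 1 horse read: among sequences with at least 2 reads in both species the shared part was 18.3% for bat and 10.4% for horse. Without the 10 microRNAs the dog and bat pair took 0.942% in dog but still 11.99% in bat. The dog and horse pair then took 2.29% and 2.53%, and the bat and horse pair 28.8% in bat and 1.58% in horse.

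In the 3 species together 377 sequences were found on either strand, with 12.7% of the reads in dog, 14.4% in the bat and 10.3% in the horse. Only 126 of them were listed on the same strand in the 3 files. miR-30e-5p and miR-30d-5p led by their lowest count. Both were listed as the reverse complement in the 3 files, while miR-21-5p and miR-191-5p were listed in RNA sense in the 3 files. miR-146b-5p was listed in RNA sense in dog and bat and as the reverse complement in horse, and miR-34c-5p as the reverse complement in dog and in RNA sense in bat and horse.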

How the data were processed

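Per the labels' protocols, RNA was taken from frozen testis with TRIzol, and its small fraction was read from 1 end over 50 nt. Each of the 3 small RNA files deposited by the authors gives sequences and, per the file headers, a read count for each, which is raw. The submitters' processing notes name Bowtie, RSEM and CanFam3.1. Read trimming and length selection: not given in the sources used here. All listed sequences were 24 to 32 nt long, so a file's total (41328689 reads in dog, 5828928 in bat, 35830283 in horse) is not the depth of the library. The 3 mRNA files were not used here.

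Rows with the same sequence were summed (242 repeated rows at 24 to 25 nt in dog, 26 in bat, 469 in horse). Ends were compared over 24 nt, within a file and as listed. Shares carry exact 95% Clopper-Pearson intervals. With 1 library per species no test was run. The functions were tested on simulated data. Python 3.11.15, pandas 2.3.3, NumPy 2.4.6 and SciPy 1.17.1 were used.

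Members, lists and measures were chosen with earlier results of these data known. Named sequences were to be the 5 most read per file, the 2 most read of each end class and their leading longer form, microRNAs with at least 1000 reads in a file, and the 2 most read found in 3 files. The rule foresaw a microRNA table. None was at hand, so 10 microRNAs were named from general knowledge and counted by their first 20 nt on either strand. A form of miR-181a-5p with 1186 reads in horse was not among them. Alternatives were distinct sequences, no single reads, no leading sequence, other end rules and, added after seeing the data, no named microRNAs. One sequence that this rule names is not reported here.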

Additional observations from a re-analysis of the deposited data

How the results depend on the processing

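Values are for dog, bat and horse in this order. The share of reads with T first (52.3%, 30.8%, 46.4%) was 46.6%, 39.7% and 43.7% over distinct sequences, 54.3%, 29.4% and 47.3% without single reads, 49.3%, 35.3% and 45.3% without the most read sequence, and 50.2%, 31.4% and 46.8% without the named microRNAs. The share with A last (44.0%, 37.9%, 48.6%) was 46.0%, 39.2% and 45.3%, then 43.5%, 38.0% and 49.7%, then 46.8%, 43.6% and 49.7%, and 46.6%, 36.0% and 48.1% under the same settings. Shortened forms (85.7%, 92.5%, 88.7% of reads) were 59.2%, 70.6% and 64.8% over distinct sequences, 96.6%, 98.5% and 96.8% without single reads, 84.8%, 91.4% and 88.4% without the most read sequence, 84.5%, 92.5% and 87.7% without the named microRNAs, 68.9%, 78.7% and 69.3% where longer forms needed 10 reads, 86.0%, 92.7% and 88.9% with 20 nt shared, and 85.9%, 92.7% and 88.8% on either strand. The 10 most read sequences (14.9%, 28.8%, 10.02%) took 19.4%, 34.3% and 12.5% without single reads, 9.90%, 19.2% and 8.47% without the most read sequence, and 4.59%, 28.05% and 3.75% without the named microRNAs. Bat had the lowest T share, the highest share of shortened forms and the steepest spectrum under each of these settings. No paired analysis was possible because each species had 1 library. At a floor of 3 reads the smallest share of the class was 0.000377%, 0.000929% and 0.000201%, and part of each file is listed on the other strand, which limits any statement on first and last bases.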
